A study of Mus musculus with 13 samples.

Results

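The genes described here are the classical members of the albumin gene family, Alb, Afp, Afm and Gc, together with Ttr, which encodes transthyretin. They were taken by gene symbol from the deposited tables, where all 5 of 5 were found among 27141 genes, and the choice of the genes used no threshold on a measured value. Each of the 5 passed the filter on low counts. Afp stands for the fetal side of the family and Alb for the adult side, and the remaining genes encode further carriers that hepatocytes secrete into plasma. Albfm1, a further gene of the family next to Afm, is not among them and had 0 to 12 counts per library.

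The cells were damaged hepatocytes (dHeps) isolated by collagenase perfusion from the livers of wild-type mice injured with carbon tetrachloride (CCl4). All cells had this injury in common and were kept for 16 days in serum-free Hepatocyte Maintenance Medium, so no group is an uninjured control, and the ages of the mice were not given in the sample labels. DMSO cultures received the solvent, and 5C cultures received GSK429286A (an inhibitor of ROCK), CID755673 (an inhibitor of protein kinase D), ETC-1002 (an activator of AMPK), forskolin (an activator of adenylate cyclase) and Salidroside. The groups 5C-G, 5C-C, 5C-E, 5C-F and 5C-S received the same mixture without GSK429286A, CID755673, ETC-1002, forskolin or Salidroside, respectively. Each group had 2 libraries, here named A and B, except 5C-S with 1. The study's methods describe replicates as biological ones, and the labels do not say which cultures or animals the libraries of a group came from, so the p-values measure only the spread between these libraries, part of which may be technical.

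Albumin is the main protein of adult plasma, where it holds osmotic pressure and carries fatty acids, bilirubin, hormones and drugs. Alpha-fetoprotein takes its place in the fetus, is silenced in the liver after birth, and returns in liver regeneration and in liver tumours. Afamin carries vitamin E and binds Wnt proteins, the vitamin D binding protein encoded by Gc carries vitamin D metabolites and scavenges actin, and transthyretin, which is unrelated in sequence, carries thyroxine and the complex of retinol with its binding protein.

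On GRCm39 with GENCODE vM39, Alb (ENSMUSG00000029368) lies at chr5:90608647-90624696, Afp (ENSMUSG00000054932) at chr5:90638584-90656766 and Afm (ENSMUSG00000029369) at chr5:90666791-90701558. These 3 genes stand head to tail on the plus strand, each with 15 exons, separated by 13887 bp between Alb and Afp and by 10024 bp between Afp and Afm. Gc (ENSMUSG00000035540), with 13 exons, lies on the minus strand of the same chromosome at chr5:89561689-89605757, at a distance of 1002889 bp from Alb.

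The proximal promoters of the 4 family members are shown because neighbouring genes of the cluster moved apart in these libraries, as described below. Each run covers 150 bases before and 50 bases after the start of the gene in RefSeq (GRCm38.p6), written 5′ to 3′ on the strand of the gene. Each matched GRCm39 exactly and at 1 place, at chr5:90608579-90608778 for Alb, chr5:90638423-90638622 for Afp, chr5:90666658-90666857 for Afm and, on the minus strand, chr5:89605708-89605907 for Gc. Capitals mark the hexamer GTTAAT, or its reverse complement ATTAAC, one of the motifs searched for.
Alb: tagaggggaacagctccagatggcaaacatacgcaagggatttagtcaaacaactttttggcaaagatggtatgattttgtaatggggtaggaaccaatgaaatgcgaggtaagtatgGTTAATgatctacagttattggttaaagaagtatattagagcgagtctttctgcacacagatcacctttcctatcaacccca
Afp: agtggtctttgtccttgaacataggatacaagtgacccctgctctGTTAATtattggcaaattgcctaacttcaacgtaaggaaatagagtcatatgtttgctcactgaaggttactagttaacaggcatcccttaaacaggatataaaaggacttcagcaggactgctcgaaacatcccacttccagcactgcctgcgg
Afm: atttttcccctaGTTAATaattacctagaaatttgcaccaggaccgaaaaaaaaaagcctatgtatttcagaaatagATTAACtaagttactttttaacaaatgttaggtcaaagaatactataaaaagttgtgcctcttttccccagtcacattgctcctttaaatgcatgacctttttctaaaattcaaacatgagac
Gc: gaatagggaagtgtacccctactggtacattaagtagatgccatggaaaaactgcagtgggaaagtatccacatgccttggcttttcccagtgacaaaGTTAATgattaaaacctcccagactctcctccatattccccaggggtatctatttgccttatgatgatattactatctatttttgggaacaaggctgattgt
The hexamer stood 32 bases before the RefSeq start of Alb, 105 bases before that of Afp, 138 and 73 bases before that of Afm, and 52 bases before that of Gc. RefSeq starts differed from the GENCODE starts given above for Alb, Afp and Afm. That of Alb lies inside the GENCODE gene, and so does its hexamer. All 4 of these windows of 300 bases (250 before to 50 after the start) held it, against 7.1% of 32851 RefSeq windows of the same length, both strands read. CCAAT or ATTGG was present in all 4 windows and in 37.4% of all windows. TATAA or TTATA was found for Afp and Afm, 2 of the 4, and in 24.9% of all windows. The FOXA heptamer TGTTTAC, the cAMP response element TGACGTCA and its core TGACG, which the full element contains, were not found in the 4 windows, which says only that these letters are not there. They occurred in 3.65%, 1.79% and 20.8% of all windows. Such matches describe the letters and are not evidence of a bound site.

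Total counts per library ran from 30195867 to 45491932, so that Afm, the scarcest of the 5 genes, still had 34 counts or more in every library. The 2 libraries of a group differed by more than counting noise in all 6 replicated groups (chi-square over its degrees of freedom from 8.32 in DMSO to 93.8 in 5C-G). Of 16 adult hepatocyte markers 15 were in the tables, and their summed level ran from 1355 FPKM in a 5C-E library to 4038 FPKM in a 5C-F library, of which Apoa1 alone took 40.9% to 85.7%. Markers of other liver cells were present too. The summed level of 10 macrophage markers was 4705 to 4727 FPKM in DMSO, 477.6 to 559.5 in 5C, 4779 to 6762 in 5C-G, 932.9 to 1593 in 5C-C, 661.2 to 780.5 in 5C-E, 1525 to 1865 in 5C-F and 586.9 in 5C-S. In such bulk RNA, fewer hepatocytes and less RNA of a gene per hepatocyte cannot be told apart, and the part of the other cells in the results below was not tested. Levels are given as FPKM, the authors' counts divided by the length of the gene and the total of the library, which can be compared between genes.

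Alb was among the most abundant mRNAs in every library, with a rank by FPKM between 1 and 10. Its levels in libraries A and B were 9711 and 8604 FPKM in DMSO, 9437 and 9425 in 5C, 4136 and 4482 in 5C-G, 3433 and 2553 in 5C-C, 2719 and 2122 in 5C-E, 18255 and 13341 in 5C-F, and 5143 in the 5C-S library. The cultures without forskolin were the highest and those without ETC-1002 or CID755673 the lowest, while DMSO and 5C overlapped. The highest library lay 8.60-fold above the lowest.

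Gc, the actin-scavenging carrier of vitamin D, was the next most abundant. Its levels were 574.1 and 585.5 FPKM in DMSO, 838.3 and 729.2 in 5C, 337.2 and 377.4 in 5C-G, 416.0 and 410.3 in 5C-C, 328.4 and 309.3 in 5C-E, 1823 and 1439 in 5C-F, and 549.8 in 5C-S. Here 5C stood above DMSO without overlap, 5C-F stood above both, and all other groups lay below DMSO.

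Ttr (ENSMUSG00000061808, 4 exons, GRCm39 chr18:20797253-20807467, plus strand) encodes the thyroxine carrier. It followed with 415.2 and 452.8 FPKM in DMSO, 321.2 and 329.9 in 5C, 199.9 and 231.0 in 5C-G, 142.3 and 187.7 in 5C-C, 121.5 and 103.1 in 5C-E, 643.8 and 587.0 in 5C-F, and 257.1 in 5C-S. No adjacent groups in the order of Ttr levels overlapped, from 5C-F at the top to 5C-E at the bottom.

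Afp, the fetal member, lay well below these 3 genes. Its levels were 48.5 and 52.0 FPKM in DMSO, 24.5 and 25.9 in 5C, 31.3 and 28.5 in 5C-G, 81.6 and 40.3 in 5C-C, 18.9 and 19.7 in 5C-E, 106.8 and 79.4 in 5C-F, and 42.4 in 5C-S. The order of the groups was unlike that of Alb, since 5C lay next to the bottom and 5C-C followed 5C-F at the top. The 5C-C libraries were far apart and overlapped both 5C-F and DMSO.

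Afm, the vitamin E carrier, was the scarcest. It measured 4.02 and 3.69 FPKM in DMSO, 2.85 and 1.68 in 5C, 1.84 and 1.45 in 5C-G, 0.370 and 0.426 in 5C-C, 0.705 and 0.413 in 5C-E, 5.57 and 4.16 in 5C-F, and 1.03 in 5C-S. Its range of 15.1-fold between the lowest and the highest library was wider than that of the other 4 genes, which spanned 5.66-fold (Afp) to 8.60-fold (Alb). The libraries of 5C were apart and overlapped those of 5C-G, and 5C-C overlapped 5C-E.

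**Figure D1:**
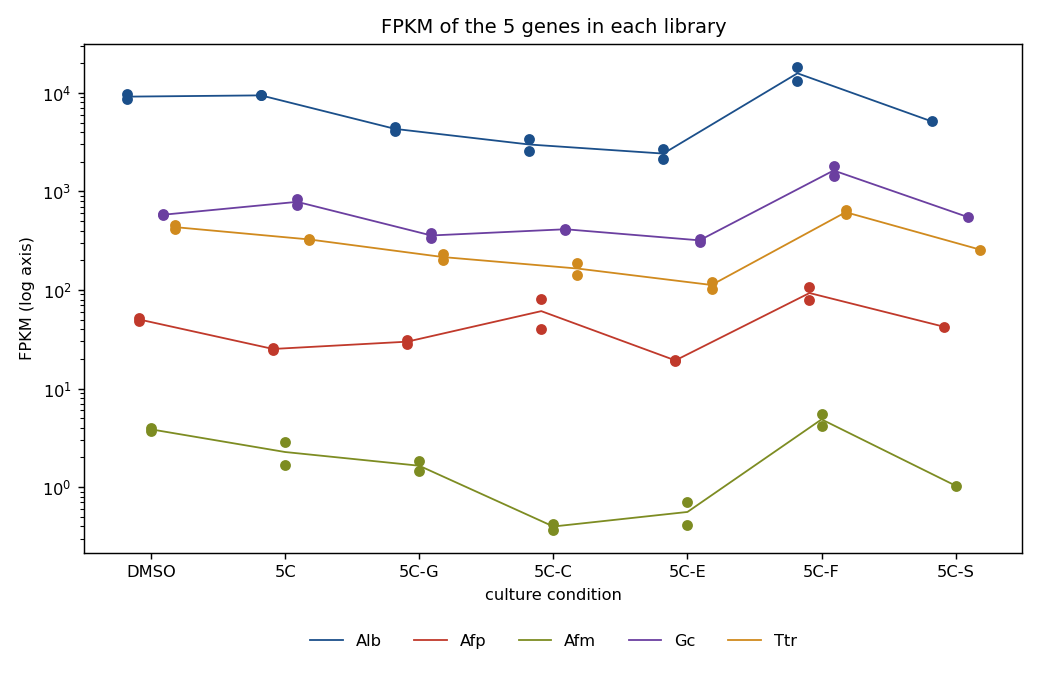
FPKM (log axis) of Alb, Gc, Ttr, Afp and Afm in each of the 13 libraries, by culture condition; points are libraries and lines join the group means. All 5 genes are at their highest mean in 5C-F, and Afp departs from the others by rising from 5C to 5C-C, where Alb falls from 9425 or more to 3433 or less.

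Of 30 pairs of groups that were neighbours in the order of a gene's level, 6 overlapped, namely 2 for Alb (5C with DMSO and 5C-C with 5C-E), 2 for Afp (5C-F with 5C-C and 5C-C with DMSO) and 2 for Afm (5C with 5C-G and 5C-E with 5C-C). With 2 libraries or 1 in a group, lack of overlap is a weak criterion. Its share over all genes was not counted, so the number for these 5 genes cannot be called unusual. The fitted tests below carry the comparisons. In edgeR's test for any difference among the 6 replicated groups, which 45.6% of the 19884 genes tested passed at an adjusted p below 0.05, all 5 genes passed, with adjusted p from 5.26e-08 (Alb) to 4.59e-06 (Afp).

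The first comparison asked what the full mixture does to these carriers. Against DMSO, Alb in 5C differed by less than its error (log2 fold change -0.03 ± 0.19 SE, 95% interval -0.43 to 0.36) and Afp was 2.10-fold lower (-1.07 ± 0.24, adjusted p = 0.0103, edgeR). A gene was called when its adjusted p was below 0.05 and its log2 fold change lay beyond 1 in either direction. By this rule Afp was the 1 of 5 members called, where 4.55% of all genes were called. Afm (-0.84 ± 0.33, adjusted p = 0.174), Ttr (-0.49 ± 0.19, adjusted p = 0.168) and Gc (0.36 ± 0.17, adjusted p = 0.297) did not pass. The Afp call depended on the processing: with total counts in place of TMM factors its log2 fold change was -0.996, just short of the fold threshold, limma on log2(FPKM + 1) gave an adjusted p of 0.0720, and leaving out any 1 of the 4 libraries gave adjusted p from 0.0620 to 0.135. The macrophage markers fell in the same comparison, 8 of 10 being called lower.

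Leaving GSK429286A out of the mixture lowered Alb and Gc by nearly the same amount. Alb was 1.99-fold lower than in 5C (log2 fold change -0.99 ± 0.19, adjusted p = 0.00126) and Gc also 1.99-fold lower (-0.99 ± 0.17, adjusted p = 0.000646). Both passed the p-value and fell just short of the fold threshold, so that 0 of the 5 members were called by edgeR, against 13.1% of all genes. By edgeR 3 of 5 had an unadjusted p below 0.05, a share that was not counted over all genes. DESeq2 called 2, which were Alb (-1.01) and Gc (-1.01). Ttr (-0.45 ± 0.19, adjusted p = 0.0905), Afm (-0.33 ± 0.33, adjusted p = 0.508) and Afp (0.38 ± 0.24, adjusted p = 0.277) did not pass. Without 5C library A, the Afm value changed sign to 0.08. Of the 10 macrophage markers, 8 were called higher than in 5C here.

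Without CID755673 the cluster moved in both directions. Against 5C, Alb fell 2.82-fold (log2 fold change -1.50 ± 0.19, adjusted p = 4.6e-05) and Afm 5.03-fold (-2.33 ± 0.36, adjusted p = 0.000165), while Afp, which lies between them on the chromosome, rose 2.69-fold (1.43 ± 0.25, adjusted p = 0.00033). These were the 3 of 5 members called, where 20.2% of all genes were called. On the log2(FPKM + 1) scale, which understates changes of scarce genes, the value of Afm was -1.20 (limma, adjusted p = 0.00348). Gc (-0.76 ± 0.17, adjusted p = 0.00261) and Ttr (-0.81 ± 0.19, adjusted p = 0.00314) were lower by less than the fold threshold. The rise of Afp rested in part on library A of 5C-C. Without it the log2 fold change was 0.89 (adjusted p = 0.00349, the lone library being assumed to vary like the other groups), and the gene was no longer called. Of the macrophage markers, 5 of 10 were called higher.

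Without ETC-1002 the log2 fold changes of all 5 genes against 5C were negative. Alb fell 4.09-fold (log2 fold change -2.03 ± 0.20, adjusted p = 9.44e-06), Afm 4.23-fold (-2.08 ± 0.35, adjusted p = 0.00238), Ttr 3.04-fold (-1.61 ± 0.19, adjusted p = 9.69e-05) and Gc 2.58-fold (-1.37 ± 0.18, adjusted p = 0.000169). These 4 of 5 members were called, in a comparison where 1.96% of all genes were called. Afp, at -0.46 ± 0.24, did not pass (adjusted p = 0.406, 95% interval -0.97 to 0.05). The call of Afm was lost without 5C library A (adjusted p = 0.0626) and without 5C-E library B (0.0952), and on the log2(FPKM + 1) scale its value was -1.05 (limma, adjusted p = 0.0354). The summed level of the macrophage markers was 661.2 to 780.5 FPKM against 477.6 to 559.5 in 5C, with 0 of 10 called by edgeR or DESeq2, 2 of 10 at an unadjusted p below 0.05, and a median log2 fold change of 0.26.

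Without forskolin all 5 genes were higher than in 5C. Afp rose most, 3.97-fold (log2 fold change 1.99 ± 0.25, adjusted p = 0.000273), followed by Afm at 2.31-fold (1.21 ± 0.33, adjusted p = 0.0281), Gc at 2.24-fold (1.16 ± 0.17, adjusted p = 0.000866) and Ttr at 2.03-fold (1.02 ± 0.19, adjusted p = 0.00381). These 4 of 5 members were called, against 4.84% of all genes. Alb was 1.80-fold higher (0.85 ± 0.19, adjusted p = 0.0106), short of the fold threshold. Leaving out 1 library moved the number of members called between 1 (without 5C-F library A) and 5 (without 5C-F library B); without 5C library A or B it was 2. Afm and Ttr lost their calls without 5C A, 5C B or 5C-F A, and Gc without 5C-F A (0.93), whereas Afp kept its call in all of these fits. Over the other settings tried, the lowest values of Afm (0.857) and Ttr (0.915) were also short of the fold threshold. In this comparison 8 of 10 macrophage markers were called higher.

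**Figure D2:**
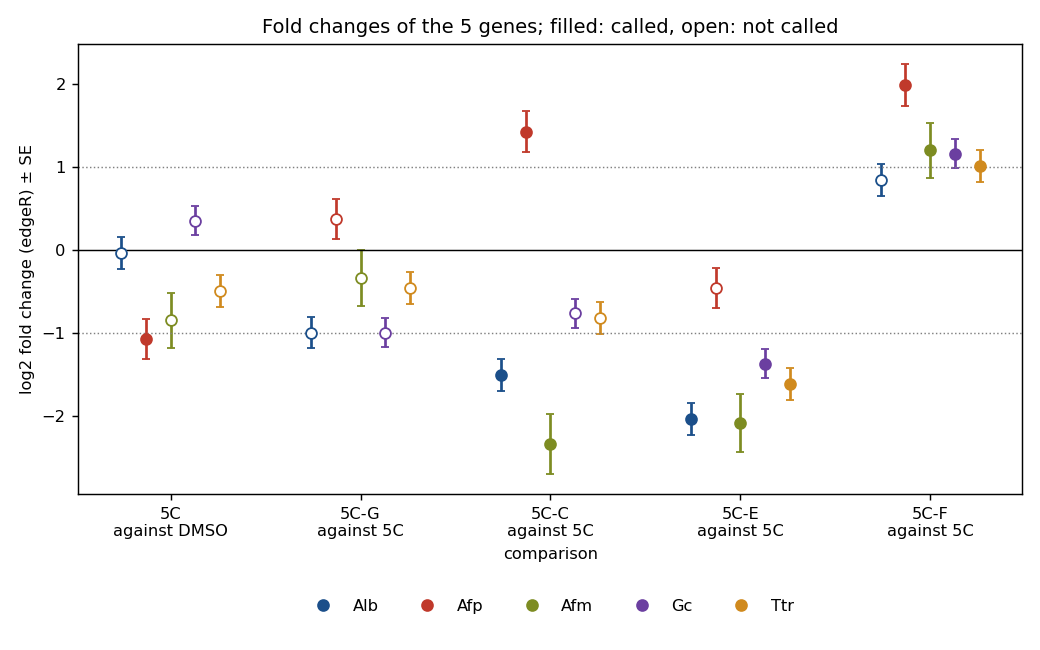
Log2 fold change with its standard error from edgeR for the 5 genes in each of 5 comparisons; filled points are called (adjusted p below 0.05 and log2 fold change beyond 1, dotted lines), open points are not. In 5C-C against 5C, Afp lies at 1.43 while Afm lies at -2.33 and Alb at -1.50, and in 5C-F against 5C all 5 genes lie above 0.

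Markers of further cell types were also called in some of these comparisons, and their part in the results was not tested. Without forskolin, the summed level of 8 cholangiocyte and progenitor markers was 3182 to 3436 FPKM against 1648 to 1990 in 5C, with 1 of 8 called higher (Krt19). Most of that sum came from Spp1, at 3243 and 2936 FPKM in 5C-F and 1842 and 1517 in 5C (log2 fold change 0.98, not called). The sum of 10 stellate cell and fibroblast markers was 912.4 to 1003 FPKM against 1498 in both libraries of 5C, with 1 of 10 called lower (Col1a2). Of all genes, 2.69% were called higher there and 2.15% lower. Without GSK429286A, 4 of the 8 cholangiocyte and progenitor markers were called lower, and of the 10 stellate cell and fibroblast markers 2 were called higher and 2 lower. Of all genes, 7.47% were called higher there and 5.64% lower. In cultures lacking CID755673, 1 of the 10 stellate cell and fibroblast markers was called higher and 3 lower, and 1 of the 8 cholangiocyte and progenitor markers higher. Of all genes, 9.65% were called higher there and 10.5% lower. In those lacking ETC-1002, 1 stellate cell and fibroblast marker was called higher and 1 lower, beside 0.654% and 1.31% of all genes. In 5C against DMSO, 2 stellate cell and fibroblast markers were called higher and 1 lower, and 2 cholangiocyte and progenitor markers higher. Of all genes, 1.66% were called higher there and 2.89% lower. Of 7 liver endothelial markers tested, 2 were called higher and 2 lower without GSK429286A, and 0 without CID755673. Without ETC-1002 or forskolin 1 was called higher in each case, and in 5C against DMSO 1 was called lower. The shares of all genes called are those just given for each comparison.

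All 4 comparisons with a compound left out use the same 2 libraries of 5C, so the cultures were also set against DMSO. Without GSK429286A, Alb (-1.02, adjusted p = 0.00419) and Afm (-1.18, adjusted p = 0.0278) were the 2 of 5 members called lower than in DMSO (5.83% of all genes called). The call of Alb was lost without DMSO library A (adjusted p = 0.0600), without 5C-G library A (-0.88), with the GC and length offset (-0.91) and with limma (adjusted p = 0.0631). That of Afm was lost without DMSO library A, DMSO library B or 5C-G library B (adjusted p = 0.168, 0.117 and 0.212) and with limma (-0.88). Without CID755673, Afm (-3.17, adjusted p = 8.72e-06), Alb (-1.53, adjusted p = 1.9e-05) and Ttr (-1.30, adjusted p = 7.9e-05) were the 3 called (22.1% of all genes). The high Afp of 5C-C did not exceed the DMSO level beyond its error (0.36 ± 0.24, adjusted p = 0.263), and the value turned to -0.17 without 5C-C library A. Without ETC-1002, all 5 members were called lower (6.09% of all genes), with log2 fold changes of -2.92 for Afm, -2.09 for Ttr, -2.06 for Alb, -1.53 for Afp and -1.01 for Gc. The Gc value was at the fold threshold and was no longer called under most of the other settings tried, where it ranged from -0.86 to -1.01. Without forskolin, Gc was the 1 member called higher than in DMSO (1.52 ± 0.18, adjusted p = 3.24e-05; 7.4% of all genes called), while Alb (0.82, adjusted p = 0.00796) and Afp (0.92, adjusted p = 0.0169) passed the p-value and not the fold threshold. Ttr (0.53, adjusted p = 0.0703) and Afm (0.37, adjusted p = 0.504) did not pass.

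The level of Afp relative to Alb within a library does not depend on the scaling between libraries and sets the fetal beside the adult member. Its absolute size depends on the gene lengths behind FPKM, whereas its change between groups does not. Afp amounted to 0.4995% and 0.604% of Alb in the libraries of DMSO, 0.259% and 0.275% in 5C, 0.756% and 0.636% in 5C-G, 2.38% and 1.58% in 5C-C, 0.694% and 0.928% in 5C-E, 0.585% and 0.595% in 5C-F, and 0.825% in 5C-S. Both 5C libraries lay below every other library, and both 5C-C libraries lay above every other one. On group means the ratio was 0.267% ± 0.0111 (SD, n = 2) in 5C and 1.98% ± 0.564 (SD, n = 2) in 5C-C. Relative to 5C, the ratio was higher by 2.60-fold (5C-G), 7.26-fold (5C-C), 3.01-fold (5C-E) and 2.21-fold (5C-F), and 5C itself stood at 0.486 of the DMSO ratio. The ranges did not overlap in any of these 5 comparisons, but an exact two-sided permutation test of 2 against 2 libraries cannot go below p = 0.333, which is the value it gave each time. The fitted values behind these ratios differed. In 5C-E both genes had negative log2 fold changes against 5C and that of Alb was the larger, in 5C-F both were positive and that of Afp was the larger, and in 5C-C the pair moved in opposite directions.

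**Figure D3:**
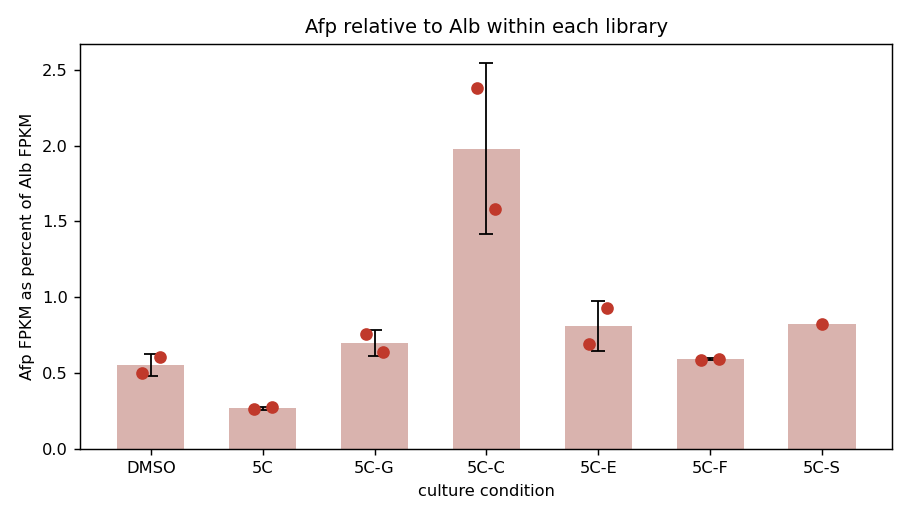
Afp FPKM as a percentage of Alb FPKM in each library, by culture condition; bars are group means, error bars the SD of 2 libraries, and points the libraries (5C-S has 1). The 5C libraries lie at 0.259% and 0.275%, below all others, and the 5C-C libraries at 2.38% and 1.58%, above all others.

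Relative to Alb, Gc and Ttr varied over a narrower range of group means than Afp did. Gc amounted to 6.36% ± 0.632 (SD, n = 2) of Alb in DMSO and 8.31% ± 0.811 in 5C. It amounted to 8.29% ± 0.190 without GSK429286A, 14.1% ± 2.79 without CID755673, 13.3% ± 1.76 without ETC-1002 and 10.4% ± 0.566 without forskolin. Ttr amounted to 4.77% ± 0.698 of Alb in DMSO, 3.45% ± 0.0675 in 5C and 5.75% ± 2.27 in 5C-C, with the remaining replicated groups between 3.96% and 4.99%. The Gc ratio was higher in 5C-C and 5C-E than in 5C by 1.68-fold and 1.60-fold, and in 5C-G it stood at 0.999 of the 5C value with overlapping ranges. Together, the 5 genes took from 0.574% of all counts (5C-E library B) to 4.73% (5C-F library A), most of it from Alb.

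For Salidroside there was a single 5C-S library, and its values are given first as a description. Against the mean of the 5C libraries, the log2 difference in normalised counts was -0.89 for Alb, 0.74 for Afp, -1.09 for Afm, -0.52 for Gc and -0.36 for Ttr. Afm was thus the 1 member beyond 2-fold lower, but its difference was -1.45 from 5C library A, -0.73 from 5C library B, and -0.66 from their mean on the log2(FPKM + 1) scale. Among all genes tested, 7.35% lay beyond 2-fold lower and 8.1% beyond 2-fold higher. Alb was lower by 1.85-fold and Afp higher by 1.67-fold. In an edgeR test added after the data were seen, with the lone library assumed to vary like the other groups, 0 of 5 members were called, as were 0% of all genes. With 1 library in a group, the p-values of the members from this test are not listed.

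Regulators known to act on the albumin cluster or on Ttr were then examined as 17 transcription factors, all of which were tested. In 5C-C against 5C, Zbtb20, a zinc finger protein known to repress Afp in the liver after birth, fell (-1.56 ± 0.23, adjusted p = 0.000116) from 2.80 and 2.06 FPKM to 0.873 and 0.606. It was also called lower in 5C-G (-1.12), and in 5C-F it stood at -0.45 (adjusted p = 0.213). Its part in the Afp values was not tested. Zhx2, another repressor of Afp, stayed between 3.26 and 6.79 FPKM in all 13 libraries. Hnf4a, a master regulator of hepatocyte genes, was called lower in 5C-G (-1.05).

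In number, 7 of the 17 regulators were called lower and 1 higher (Cebpb, a factor of the acute phase response, 1.34) in 5C-G against 5C, where 5.64% of all genes were called lower and 7.47% higher. Their median log2 fold change was -0.55 beside -0.01 over all genes. The largest falls were those of Onecut1 (-4.15), Prox1 (-2.28) and Foxa1 (-1.94), factors of liver development. In 5C-C, 3 were called lower (Prox1, -2.02, Zbtb20, -1.56, and Nr5a2, -1.01) and 2 higher (Dbp, the circadian factor named for its binding to the Alb promoter, 1.95, and Cebpb, 1.48), with a median of -0.35. These 5 of 17 stood beside 20.2% of all genes called in that comparison, 10.5% lower and 9.65% higher. In 5C-E, where the 4 carriers fell together, Prox1 (-1.002) was the 1 regulator called, where 1.31% of all genes were called lower, and the median was -0.21. In 5C-F, Foxa3 (1.17) and Dbp (1.07) were called higher, where 2.69% of all genes were, with a median of 0.47. In 5C against DMSO, Dbp (-1.11) and Cebpa (-1.04) were called lower, where 2.89% of all genes were.

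**Figure D4:**
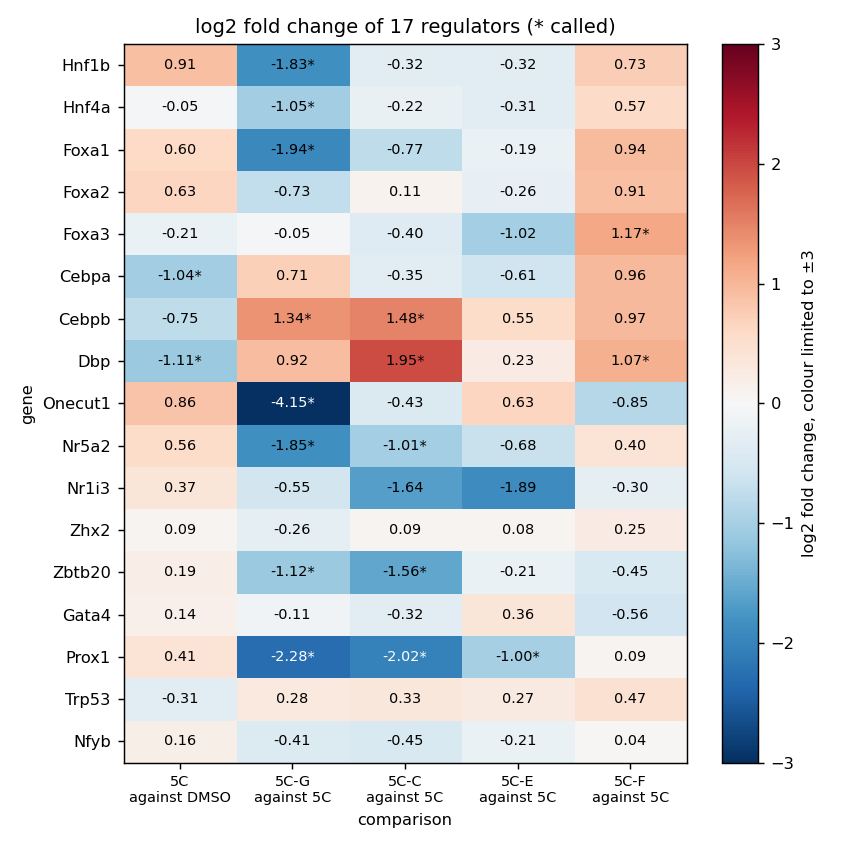
Log2 fold change (edgeR) of 17 transcription factors known to act on the albumin cluster or on Ttr, in 5 comparisons; the colour scale stops at 3 in either direction and an asterisk marks called genes. The column for 5C-G holds 7 called falls, and the Zhx2 row holds no called value.

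Further carriers, most of them secreted into plasma, a list of 14 of which 13 were tested, divided in the same comparisons. In 5C-E against 5C, 5 of 13 were called lower, where 1.31% of all genes were, with a median of -0.82 beside 0.01 over all genes. They included Fabp1, the fatty acid carrier of the hepatocyte cytosol (-4.00), Apoh (-1.84) and Rbp4, the retinol carrier that travels in plasma bound to transthyretin (-1.46, from 616.2 and 620.9 FPKM in 5C to 247.3 and 223.5). In 5C-F, Apom (1.92) and Fabp1 (1.16) were the 2 called higher, where 2.69% of all genes were, and the median was 0.61. In 5C-C, Fabp1 (-2.12) and Apoh (-1.40) were called lower and Hpx, the heme carrier, higher (1.28), that is 3 of 13 against 20.2% of all genes called. In 5C-G, Serpina7, which carries thyroxine as Ttr does (-1.77), and Cp (-1.67) were called lower and Tcn2, a carrier of vitamin B12, higher (1.28), that is 3 of 13 against 13.1% of all genes called. In 5C against DMSO, Fabp1 (2.53) and Serpina7 (1.13) were called higher and Tcn2 (-1.13) lower, beside 1.66% and 2.89% of all genes.

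Among 10 genes of albumin recycling and carrier uptake, Fcgrt, whose product returns albumin from endosomes to plasma, stood at 139.8 and 149.5 FPKM in DMSO and 54.6 and 63.3 in 5C (-1.37, adjusted p = 0.000658). It was called higher than in 5C in 5C-G (2.01) and in 5C-C (1.33), and it stood at 0.12 in 5C-E (adjusted p = 0.879) and at 0.73 in 5C-F (adjusted p = 0.0456, short of the fold threshold). Macrophages also express Fcgrt. The macrophage marker sums given above were higher than in 5C in all 4 of these groups, but in 5C-E 0 of the 10 markers were called. Their part in the Fcgrt values was not tested. Lrp2, the megalin receptor that takes up Gc and retinol carriers, was called lower in 5C-C (-1.28) and in 5C-F (-1.37), Stra6l, a retinol transporter, lower in 5C-G (-1.14), and Asgr1, an asialoglycoprotein receptor of hepatocytes, also lower without GSK429286A (-1.03), CID755673 (-1.36) or ETC-1002 (-1.88).

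Other genes known from fetal liver, 13 of which were tested, were read beside Afp. H19, an imprinted RNA of fetal tissues, was called higher in 5C than in DMSO (2.38), where Afp was lower. It was 1 of 4 of the 13 called higher there, with Igf2 (2.49), Cd24a (1.69) and Gpc3 (1.51), against 1.66% of all genes. H19 fell in 5C-G against 5C (-3.21), where Afp did not pass. In that last comparison 7 of the 13 were called lower, with a median of -1.67, and 5.64% of all genes were. Among them were Peg3 (-2.10) and Igf2, a fetal growth factor, which had 117 and 175 counts in 5C and 2 in each 5C-G library. In 5C-C, where Afp rose, 1 of the 13 was called higher (Bex1, 1.82) and 2 lower (Mest, -2.74, and Igf2bp1, -1.39), a share close to the 20.2% of all genes called. In 5C-E, Ahsg (-1.15) was the 1 called, where 1.96% of all genes were called. In 5C-F, Bex1 (3.22) was called higher and Mest (-1.42) lower, where 4.84% of all genes were called.

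Adult hepatocyte markers were counted against 5C in the same way. In 5C-G, 9 of 15 were called lower and 2 higher (median -1.20), in 5C-C 7 lower and 1 higher (median -0.95), and in 5C-E 8 of the 15 lower (median -1.10). The shares of all genes called lower were 5.64%, 10.5% and 1.31% in these comparisons. The summed level of the 15 markers was 2048 to 2215 FPKM in 5C, 2497 to 3444 in 5C-G, 2164 to 2441 in 5C-C and 1355 to 1411 in 5C-E, and Apoa1 made up 80.5% and 85.7% of it in the 5C-G libraries. Without Apoa1, a calculation added after the data were seen, the other 14 summed to 1308 and 1168 FPKM in 5C, 487.6 and 492.1 in 5C-G, 848.1 and 676.2 in 5C-C and 748.4 and 676.5 in 5C-E, all below 5C. The pericentral enzyme Cyp2e1 fell in 5C-C (-5.97), 5C-E (-4.63) and 5C-G (-2.67). Hpd and Tdo2, enzymes of tyrosine and tryptophan breakdown, fell in 5C-C (-3.52 and -2.98) and 5C-E (-3.06 and -2.48), and in 5C-G the urea cycle enzyme Cps1 (-2.68) and Tdo2 (-2.28) were among those called lower. Those called higher were Apoa1 (1.63) and Ttc36 (2.41) in 5C-G and Ttc36 (1.93) in 5C-C. In 5C against DMSO, Cyp3a11, a drug-metabolising enzyme, was called higher (8.10, from 0.708 and 0.542 FPKM to 172.6 and 191.1) and Tat lower (-1.32). In 5C-F, 2 were called higher, Apoa1 (1.66) and Ttc36 (2.09), and 1 lower, Cyp3a11 (-2.40), beside 2.69% and 2.15% of all genes, with a median of 0.11.

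Across the 13 libraries, log2 normalised counts of Alb varied most closely with those of Ttr (Pearson r = 0.959, Spearman rho = 0.951), Afm (r = 0.920) and Gc (r = 0.913). Afp varied less closely with the other 4 genes, with r from 0.411 (Afm) to 0.666 (Gc). These values describe 13 libraries that share their groups and scaling factors. Among genes with a mean of at least 10 FPKM, those most like Alb were Apoh (r = 0.982) and Cyp4v3 (0.982). The genes most like Ttr were Azgp1 (0.985), Spp2 (0.973) and Apoh (0.960), and those most like Gc were Hsd17b13 (0.958), Acadm (0.955) and Gsta3 (0.952). For Afm they were Rab7 (0.938), Apoh (0.937) and Apoa2 (0.936), and for Afp, at lower values, Got1 (0.910), Mst1 (0.883) and Pxdc1 (0.877).

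Afp is also made by visceral endoderm and yolk sac, and Ttr by the choroid plexus. In 5C-C, where Afp rose, the summed level of the visceral endoderm and yolk sac markers was 34.4 to 41.0 FPKM, below the 58.6 to 60.5 of 5C. In 5C-F it was 56.3 to 58.9 FPKM. Most of that sum came from Dab2, at 48.2 and 48.5 FPKM in 5C and 24.4 and 22.6 in 5C-C (log2 fold change -0.88, adjusted p = 0.000404), whereas the median over the 5 markers tested in 5C-C was 0.67, with Amn called higher (2.32) and Sox17 (2.07, adjusted p = 0.0589) and Cubn (0.67, adjusted p = 0.591) not called. Hhex, which hepatocytes also express, was called higher in 5C-F (1.15). Of the choroid plexus markers, Folr1 stood at 17.9 to 53.0 FPKM in the 13 libraries. Clic6, at 0.371 to 3.58 FPKM, was called higher in 5C than in DMSO (1.82) and fell when GSK429286A was left out (-2.38). Their part in the Ttr values was not tested. Kl stood at 0.0133 FPKM or less and Kcne2 at 0.146 FPKM or less in every library.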

How the data were processed

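RNA-seq libraries of 13 mouse dHeps samples in 7 groups were analysed. The authors prepared them with an NEBNext Ultra kit, sequenced paired ends on a NovaSeq, mapped to GRCm39 and deposited counts per gene and FPKM per gene; the submitters' processing notes name Subread, featureCounts and DESeq2. Annotation release and strand handling are not given in the sources used here. The deposited counts were whole and not normalized. The deposited FPKM matched count per length and total count within 0.148% for the 5 members. Columns name the group and not the sample, so libraries were named A and B by the running number of the columns, and no source says that equal numbers pair libraries.

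Counts were tested with edgeR 4.0.16 (R 4.3.3; TMM factors, filterByExpr with a minimum count of 10, quasi-likelihood test), all 13 libraries in a single fit of group means with 6 residual degrees of freedom, and p-values were adjusted by Benjamini-Hochberg over 19884 genes. The study's methods name DESeq; edgeR took its place. The 5C-S library was first described without a test, and a test was added. Alternatives were total counts, DESeq2 1.42.0, limma 3.58.1 on log2(FPKM + 1), other filters and thresholds, a GC and length offset, 2-group fits, each library left out and, chosen after seeing the data, a block by column number. The scripts were tested on simulated data.

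Members and lists were chosen with earlier results of these data known. Of each list, up to 3 called genes in each direction with the greatest change were named per comparison, and Zhx2 and Hnf4a were added for their known role after values were seen, as were the markers of other sources of Afp and Ttr. G6pc1, Lin28b, Clec4g, Cdx2 and Otx2 were not matched by symbol, and Shbg, Kl, Kcne2 and Cd3e did not pass the filter. Of the lists, some genes are not reported here or are counted only. Promoter windows came from RefSeq (GRCm38.p6). Intervals and SDs over 2 libraries are imprecise.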

Additional observations from a re-analysis of the deposited data

How the results depend on the processing

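No member's called fold change turned direction under any setting tried. Of 540 alternative fold changes of members, 478 stayed on the same side of the call rule, 240 of them called and 238 not, 24 became called, 36 lost their call, and 2 that were not called moved beyond their error. The number of members called for 5C against DMSO (1) became 0 with total counts only or limma, and 0 without any 1 library. For 5C-G against 5C (0) it was 2 with total counts, DESeq2, limma, no filter, at least 10 counts in every library, a log2 threshold of 0.5 or the adjusted p alone, and 0 to 2 with 1 library left out. For 5C-C against 5C (3) it was 5 with the 0.5 threshold or the adjusted p alone, and 2 to 4 with 1 library left out. For 5C-F against 5C (4) it was 2 with limma, 5 with the 0.5 threshold or the adjusted p alone, and 1 to 5 with 1 library left out. Settings that moved a number by 1 are not all listed. For 5C-G against DMSO (2) it was 3 with total counts, 1 with limma, 4 with the 0.5 threshold or the adjusted p alone, and 1 to 2 with 1 library left out. For 5C-F against DMSO (1) it was 3 with the 0.5 threshold or the adjusted p alone, and 1 to 3 with 1 library left out. The cause of these changes was not tested, other than that looser thresholds call more by construction. With total counts the median log2 fold change over all genes was -0.135 in 5C-G, -0.147 in 5C-C and -0.108 in 5C-F against 5C, beside -0.00636, 0 and -0.011 with TMM. The log2 ratio of Afp to Alb kept its direction throughout; in 5C-C against 5C it ran from 2.56 to 3.15 with 1 library left out. Equal column numbers, which the labels do not tie to a shared mouse or day, had deviations from their group means that correlated over genes with r between -0.0338 and 0.104 over 15 pairs of groups, 1 of them above 0.1. A replicate block by that number, chosen after seeing the data, changed no member's call in any of the 9 comparisons, with 1 member called for 5C against DMSO and 3 for 5C-C against 5C as without it. Over all genes, 988 in place of 905 were called for 5C against DMSO and 466 in place of 390 for 5C-E against 5C. With 34 to 655 counts, Afm had the largest errors of the 5 genes.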

Other observations

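Protein-coding genes on either side of the cluster, or between it and Gc, were read for comparison. Ankrd17, which encodes an ankyrin repeat protein, fell in 5C-G against 5C (log2 fold change -1.02, edgeR adjusted p = 0.000751) and was lower by less than the fold threshold in 5C-C (-0.99, adjusted p = 0.000552), while in 5C-E it stood at 0.23 (adjusted p = 0.61) and in 5C-F at -0.50 (adjusted p = 0.0817). Rassf6 rose in 5C-F (1.17, adjusted p = 0.0334). Adamts3, a procollagen peptidase gene, fell in 5C-F (-1.63, adjusted p = 0.00689) and in 5C-G (-1.34, adjusted p = 0.00743). The antisense gene Gm43449, which overlaps Afp, had 0 to 6 counts per library.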
